A study of Mus musculus with 40 samples.

Results

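The respiratory chain genes described here are the nuclear genes for subunits of the 4 respiratory complexes and of ATP synthase (complex V). They are the protein-coding genes of the count table whose symbol starts with Ndufa, Ndufb, Ndufc, Ndufs, Ndufv, Uqcr, Cox4, Cox5, Cox6, Cox7, Cox8 or Atp5, or is Sdha, Sdhb, Sdhc, Sdhd or Cyc1, without the Ndufaf assembly factors and pseudogenes. There were 87 such genes among 56980 in the table, 36 in complex I, 4 in complex II, 9 in complex III, 20 in complex IV and 18 in complex V, and 83 of them had enough counts to be tested. Their RNA was measured by sequencing polyadenylated RNA of brain tissue, named in the series title as medial prefrontal cortex, from female wild-type C57BL/6J mice, an inbred laboratory strain. The 8 groups of 5 libraries joined age, drink and injection. Adult mice, which started on postnatal day 55, received oral antibiotics with morphine, water with morphine, antibiotics with saline, or water with saline. Adolescent mice, which started on postnatal day 25, received the same 4 combinations. Morphine was injected under the skin at 15 mg/kg, and injections of morphine or saline went on for 5 days. The antibiotics are not named in the sources used here, and no source says whether a library came from 1 animal or from pooled animals, so the p-values measure the spread between libraries only.

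The respiratory chain passes electrons from NADH (through complex I) and succinate (through complex II) to ubiquinone, on through complex III and cytochrome c to complex IV, which reduces oxygen. Complexes I, III and IV pump protons across the inner mitochondrial membrane, and ATP synthase uses the returning protons to make ATP, the main energy source of neurons at the synapse. The catalytic cores of the complexes are surrounded by small accessory subunits, and a few core subunits are encoded in mitochondrial DNA while all others come from nuclear genes.

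Total counts were 8636712 to 12098769 per library. Markers of cortical excitatory neurons, such as Slc17a7 and Camk2a, summed to between 6268 and 7765 CPM (normalised counts-per-million) in the 40 libraries. Libraries differed in the balance of short and long genes, measured as the median log2 deviation of the shortest quintile of tested genes minus that of the longest quintile, with the respiratory chain genes left out of both. This score was lowest in replicate 3 of adult water with morphine (-0.28), replicate 3 of adult antibiotics with saline (-0.17) and replicate 5 of adult antibiotics with morphine (-0.15), against a median of 0.02 over all libraries. Since most respiratory chain genes are short, the score and results without those 3 libraries stand beside the results below. In bulk tissue, fewer cells of a type and less RNA per cell cannot be told apart.

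Promoters of 69 of the 87 genes were found in RefSeq tables of mouse build GRCm38.p6, as windows of 300 bases from 250 before to 50 after the start of transcription. Those of Atp5k, Uqcr11 and Cox5b are shown as 3 of the genes lower in adults under all settings run for antibiotics and saline. Ndufa1, Ndufa2 and Ndufb8 were also lower under all of these and are not shown. The window of Cox6a1 is shown since it was lower in adults under antibiotics and morphine, and that of Sdha as a gene with a long transcript that was not called lower. Capitals mark matches, on either strand, to the binding motifs of NRF1 (GCGCA, any base, then GCGC), GABPA (CCGGAAG), YY1 (AANATGGCG) and ERRA (TNAAGGTCA), regulators known to act on respiratory chain genes in mammals; no matches overlap in these 5 windows.
Atp5k (chr5:108434350-108434649, minus strand): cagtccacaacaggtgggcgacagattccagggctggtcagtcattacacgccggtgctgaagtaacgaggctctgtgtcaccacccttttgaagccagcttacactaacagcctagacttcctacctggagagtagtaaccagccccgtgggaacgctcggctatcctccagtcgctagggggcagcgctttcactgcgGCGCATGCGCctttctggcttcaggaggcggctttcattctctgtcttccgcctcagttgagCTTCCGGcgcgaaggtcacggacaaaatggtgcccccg
Uqcr11 (chr10:80406772-80407071, minus strand): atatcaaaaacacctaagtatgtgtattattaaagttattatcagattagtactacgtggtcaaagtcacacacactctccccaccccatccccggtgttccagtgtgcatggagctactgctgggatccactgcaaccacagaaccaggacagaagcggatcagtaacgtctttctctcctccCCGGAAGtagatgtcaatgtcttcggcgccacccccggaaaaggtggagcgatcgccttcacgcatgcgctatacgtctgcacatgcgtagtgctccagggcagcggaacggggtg
Cox5b (chr1:36691237-36691536, plus strand): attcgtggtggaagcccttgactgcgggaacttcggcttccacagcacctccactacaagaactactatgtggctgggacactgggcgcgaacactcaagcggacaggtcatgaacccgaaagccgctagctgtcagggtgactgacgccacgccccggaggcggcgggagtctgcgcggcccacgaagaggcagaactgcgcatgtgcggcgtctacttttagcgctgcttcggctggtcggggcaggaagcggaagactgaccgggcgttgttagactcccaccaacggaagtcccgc
Cox6a1 (chr5:115348909-115349208, minus strand): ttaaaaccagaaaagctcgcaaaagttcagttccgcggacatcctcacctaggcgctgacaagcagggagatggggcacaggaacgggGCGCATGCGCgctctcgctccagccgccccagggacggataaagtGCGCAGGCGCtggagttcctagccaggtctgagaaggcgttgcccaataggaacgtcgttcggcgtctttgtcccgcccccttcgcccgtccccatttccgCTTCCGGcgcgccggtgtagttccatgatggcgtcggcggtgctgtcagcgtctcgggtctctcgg
Sdha (chr13:74350191-74350490, minus strand): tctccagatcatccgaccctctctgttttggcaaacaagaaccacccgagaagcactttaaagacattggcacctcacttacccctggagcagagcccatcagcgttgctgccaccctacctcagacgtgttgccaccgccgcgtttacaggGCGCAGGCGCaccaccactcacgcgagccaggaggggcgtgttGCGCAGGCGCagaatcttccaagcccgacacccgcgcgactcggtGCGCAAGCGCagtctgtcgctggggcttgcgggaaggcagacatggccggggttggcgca
Among 74 promoter windows of these genes, 24.3% held the NRF1 motif, against 4.6% of all 32851 windows in the table. The GABPA motif was in 21.6% against 8.86%, the YY1 motif in 13.5% against 2.38% and the ERRA motif in 4.05% against 1.28%. The NRF1 motif was in 25.0% of the 40 windows of genes called lower in adults under antibiotics and saline and in 25.0% of the 32 windows of genes tested and not called there. The windows of Ndufa1 and Ndufb8, which are not shown, held none of these motifs, so the windows shown are not a fair sample of motif shares. A match describes the letters of the window only.

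Per length of the principal transcript, the highest mean levels over the 40 libraries belonged to nuclear-encoded subunits of complex IV and to the catalytic subunit of ATP synthase. Cox8a stood at 478 CPM per kilobase, Cox4i1 at 455, the ATP synthase beta subunit Atp5b at 417 and Cox6a1 at 403 CPM per kilobase. Among tested genes only, the median gene of complex III had 103 CPM per kilobase, that of complex IV 124 and that of complex V 109. That of complex II had 53.7 and that of complex I 48.5 CPM per kilobase.
For complex IV subunits that exist as paralogues, the form known as ubiquitous was at a far higher level than the form known from muscle, lung or testis. Cox4i1 stood against Cox4i2 at 455 and 1.74 CPM per kilobase, Cox6a1 against Cox6a2 at 403 and 5.41, Cox6b1 against Cox6b2 at 157 and 1.45, and Cox7a2 against Cox7a1 at 110.2 and 1.83 CPM per kilobase. Ndufa4, a subunit once assigned to complex I and now to complex IV, stood at 186 CPM per kilobase against 2.37 for its paralogue Ndufa4l2. Cox8c had 0 counts, Cox8b 23 and Cox7b2 45 counts in all 40 libraries together, and these 3 were not tested, nor was a readthrough entry of Atp5o with 0 counts.

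The group means of the 83 genes were lower in adults than in adolescents under each of the 4 treatments. The mean log2 CPM was 5.49 ± 0.10 in adults given antibiotics and saline and 5.81 ± 0.04 in adolescents given the same (SD, n = 5 each), and the libraries ran from 5.32 to 5.58 in these adults and from 5.75 to 5.85 in these adolescents, so these groups did not overlap. With water and morphine the means were 5.58 ± 0.15 in adults and 5.78 ± 0.06 in adolescents, and with antibiotics and morphine 5.53 ± 0.16 in adults and 5.68 ± 0.10 in adolescents. With water and saline they were 5.65 ± 0.08 in adults and 5.72 ± 0.04 in adolescents, and the libraries of the 2 ages overlapped, as they did in both morphine pairs. Summed over all 87 genes, the level was 6764 ± 285 CPM in adults and 7928 ± 141 CPM in adolescents given antibiotics and saline, and 7225 ± 384 CPM in adults and 7499 ± 269 CPM in adolescents given water and saline. The 3 libraries of lowest short-minus-long score had means of 5.33, 5.32 and 5.37, against a median of 5.68 over the 40 libraries.

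**Figure D1:**
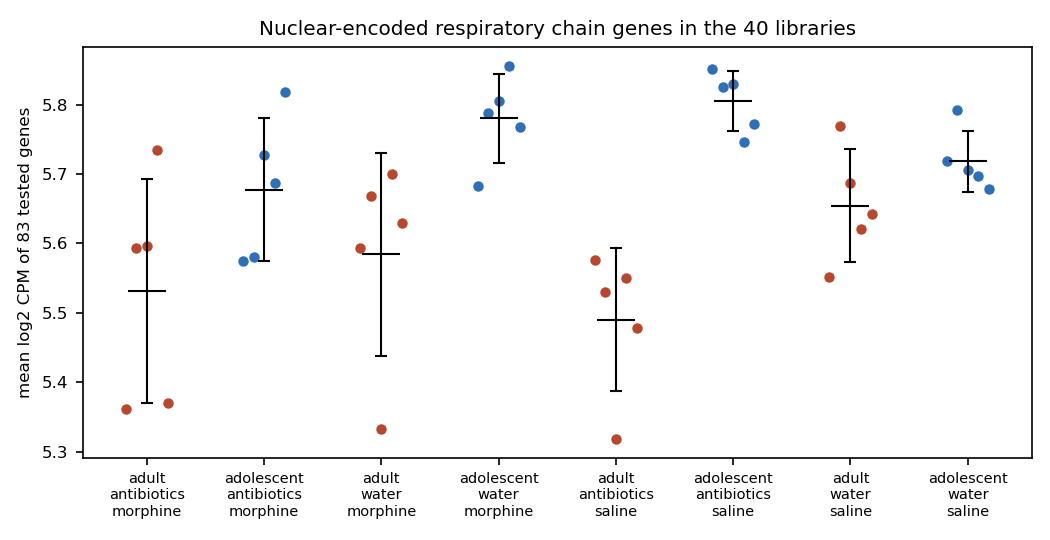
Mean log2 CPM of the 83 tested respiratory chain genes in each library (points), by group on the x axis, with group mean and SD (bars). Adults given antibiotics and saline lie between 5.32 and 5.58, below the 5.75 to 5.85 of adolescents given the same.

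Under antibiotics and saline, 43 of the 83 genes were lower in adults than in adolescents and none was higher, at an adjusted p under 0.05 (the call used throughout) in edgeR's quasi-likelihood test with adjustment over all 17880 genes tested. That is 51.8% of the genes, beside 5.97% of all genes called in either direction and 3.18% called lower. Here and below, shares of all genes called are those of the edgeR fit of all 8 groups, not of the other settings. The median log2 fold change of the 83 genes was -0.27, 80 of them had a negative value, and in 42 all 5 adult libraries lay below all 5 adolescent libraries, which held for 3.5% of all genes.
With the short-minus-long score of each library as a covariate, added after the data were seen, 6 of the 43 calls were left and the median was -0.11. The score ran from -0.17 to -0.005 in these adults and from 0.04 to 0.14 in these adolescents, so age and score cannot be told apart between the 2 groups. Without the 3 libraries of lowest score 38 genes were called. Of those libraries only replicate 3 of adult antibiotics with saline is in this comparison, so this setting leaves most of the score difference between the groups in place. With an offset for GC content and transcript length 32 genes were called. The 6 genes called also with the covariate were Atp5k, Uqcr11, Cox5b, Ndufa1, Ndufa2 and Ndufb8, and none of these lost its call under any other setting or without any 1 library.

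**Figure D2:**
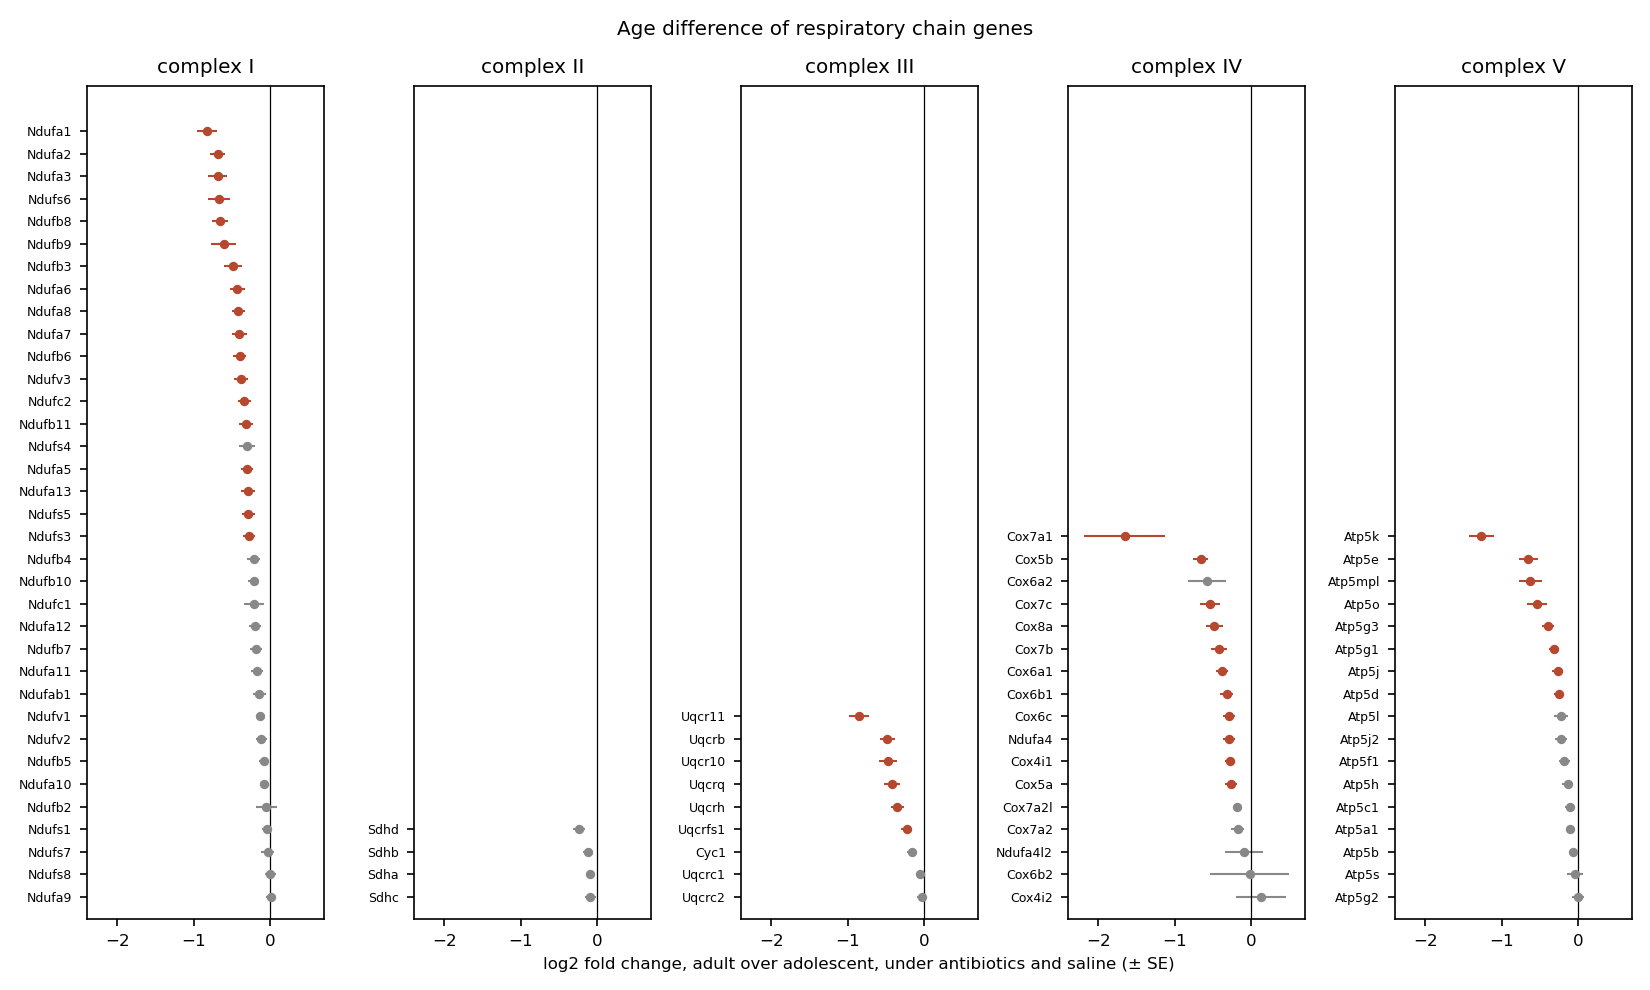
Log2 fold change of adults over adolescents given antibiotics and saline (x axis, ± SE) for single tested genes (rows), in 1 panel per complex, with 1 complex I gene that was not called left out; red points were called at an adjusted p under 0.05 and grey points were not. Calls are 18 of 36 in complex I, 0 of 4 in complex II, 6 of 9 in complex III, 11 of 17 in complex IV and 8 of 17 in complex V.

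In complex I, the NADH dehydrogenase, 18 of 36 genes were lower in adults under antibiotics and saline, and 17 of these were among the 29 accessory subunits. Ndufa1, a small membrane-arm subunit needed for assembly, had 12.4, 12.9, 13.0, 18.3 and 12.8 CPM in adults and 23.6, 27.4, 26.7, 20.2 and 25.0 CPM in adolescents. Every adult library was below every adolescent library, and the log2 fold change was -0.83 ± 0.13 (SE), adjusted p = 4.06e-05. Ndufa2, an accessory subunit near the electron input, had 23.5, 26.1, 23.0, 27.8 and 29.3 CPM in adults and 43.6, 41.8, 41.5, 40.2 and 41.4 CPM in adolescents. These values did not overlap either, and the log2 fold change was -0.69 ± 0.10 (SE), adjusted p = 1.52e-05. Ndufb8, an accessory subunit of the membrane arm, had 23.6, 20.6, 15.3, 14.5 and 18.5 CPM in adults and 33.0, 27.1, 29.4, 25.2 and 31.5 CPM in adolescents. The groups stayed apart, at a log2 ratio of adult to adolescent of -0.65 ± 0.10 (SE), adjusted p = 6.74e-05. The other accessory subunits with the smallest p included Ndufa3 at -0.69, Ndufa8 at -0.42 and Ndufb6 at -0.40 on the log2 scale.
Of the 7 core subunits, which carry the flavin and the iron-sulfur clusters, only Ndufs3 was called lower, at -0.28 ± 0.07 (SE), adjusted p = 0.016. Ndufs1, the largest of them, had 117, 104, 119, 113 and 116 CPM in adults and 117, 114, 117, 128 and 110.2 CPM in adolescents. These ranges overlapped, and the log2 fold change was -0.04 ± 0.06 (SE), adjusted p = 0.766. Ndufv1, which binds NADH, stood at -0.13 and Ndufs8 at 0.00 on the log2 scale, with no call. Among the accessory subunits, Ndufab1, the mitochondrial acyl carrier protein, stood at -0.14 and Ndufa9 at 0.01 with no call.

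None of the 4 genes of complex II, succinate dehydrogenase, was called under antibiotics and saline by edgeR. Sdha, its flavoprotein, had 307, 307, 317, 322 and 312 CPM in adults and 330.2, 332, 329, 347 and 329 CPM in adolescents. The adult libraries lay below the adolescent ones by a small margin, at a log2 ratio of adult to adolescent of -0.09 ± 0.05 (SE), adjusted p = 0.274. The iron-sulfur subunit Sdhb stood at -0.13, the membrane anchor Sdhc at -0.09 and the other anchor Sdhd at -0.24, the last with adjusted p = 0.062 in edgeR.

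In complex III, the cytochrome bc1 complex, all 5 small subunits were lower in adults under antibiotics and saline, and 1 of the 4 large or catalytic subunits was. Uqcr11, the smallest subunit, had 33.1, 39.0, 22.8, 36.8 and 26.5 CPM in adults and 60.1, 63.4, 59.8, 48.3 and 55.4 CPM in adolescents. No adult library reached the lowest adolescent one, and the log2 fold change was -0.86 ± 0.13 (SE), adjusted p = 8.30e-05. Uqcrb, Uqcr10, Uqcrq and the hinge protein gene Uqcrh stood at -0.48, -0.47, -0.42 and -0.35 on the log2 scale. The Rieske iron-sulfur protein gene Uqcrfs1 was called lower at -0.23 ± 0.07 (SE), adjusted p = 0.0414. Cyc1, the cytochrome c1 gene, stood at -0.16 ± 0.07 (SE), adjusted p = 0.173, and the core proteins Uqcrc1 and Uqcrc2 at -0.06 and -0.04 with no call.

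In complex IV, cytochrome c oxidase, 10 of the 12 ubiquitous or main isoforms were lower in adults under antibiotics and saline. Cox5b, a subunit on the matrix side, had 83.7, 90.8, 65.0, 80.9 and 80.1 CPM in adults and 135, 132, 128, 115 and 125 CPM in adolescents. The highest adult library was below the lowest adolescent one, at a log2 ratio of adult to adolescent of -0.66 ± 0.10 (SE), adjusted p = 3.86e-05. Cox4i1, the largest nuclear-encoded subunit, had 325, 317, 301, 309 and 296 CPM in adults and 375, 366, 387, 385 and 366 CPM in adolescents. These groups did not overlap either, and the log2 fold change was -0.28 ± 0.06 (SE), adjusted p = 0.00236. Cox6a1, Cox8a, Cox7c, Cox5a, Cox6c and Ndufa4 were called lower at -0.39, -0.48, -0.54, -0.26, -0.29 and -0.29 on the log2 scale. Cox7a2l stood at -0.18 ± 0.06 (SE), adjusted p = 0.06.
Of the 5 tested isoforms known from other tissues, the muscle form Cox7a1 was called lower at -1.66 ± 0.53 (SE), adjusted p = 0.0464. It had only 1 to 5 counts per adult library and 5 to 18 counts per adolescent library, close to the 3 counts taken as the detection floor, and the groups met at 5 counts. Cox6a2 stood at -0.58, Cox6b2 at -0.02, Cox4i2 at 0.13 and Ndufa4l2 at -0.09 with no call.

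In complex V, the ATP synthase, 8 of 17 tested genes were lower in adults under antibiotics and saline, and the gene with the largest change was Atp5k, the e subunit, which helps ATP synthase form dimers. Atp5k had 15.2, 17.3, 10.5, 19.0 and 13.5 CPM in adults and 40.3, 34.8, 39.4, 31.8 and 35.7 CPM in adolescents. The adult values were all far below the adolescent ones, at a log2 ratio of adult to adolescent of -1.27 ± 0.16 (SE), adjusted p = 1.52e-05. Atp5e, the epsilon subunit of the central stalk, was called lower at -0.65 ± 0.12 (SE), adjusted p = 0.00119.
The proton-carrying c ring is encoded by 3 genes, which make the same mature protein. Atp5g1 and Atp5g3 were called lower at -0.32 ± 0.07 (SE), adjusted p = 0.0024 and -0.40 ± 0.08 (SE), adjusted p = 6.06e-04, while Atp5g2 stood at -0.005 ± 0.08 (SE), adjusted p = 0.985. Atp5g2 has a short principal transcript of 441 bases, as does Ndufb2 (455 bases, log2 fold change -0.05), both singled out after their values were seen. All annotated exons together span 1675 bases in Atp5g2 and 5628 in Ndufb2. The principal transcript of Atp5g2 is almost all coding (438 bases) and has copies of 100% identity over 441 bases elsewhere, so its length and reads are uncertain. The catalytic alpha and beta subunits Atp5a1 and Atp5b stood at -0.11 ± 0.05 (SE), adjusted p = 0.234 and -0.07 ± 0.05 (SE), adjusted p = 0.487, and Atp5b had 829, 782, 773, 718 and 775 CPM in adults and 829, 797, 806, 829 and 810.4 CPM in adolescents, ranges that overlapped.

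**Figure D3:**
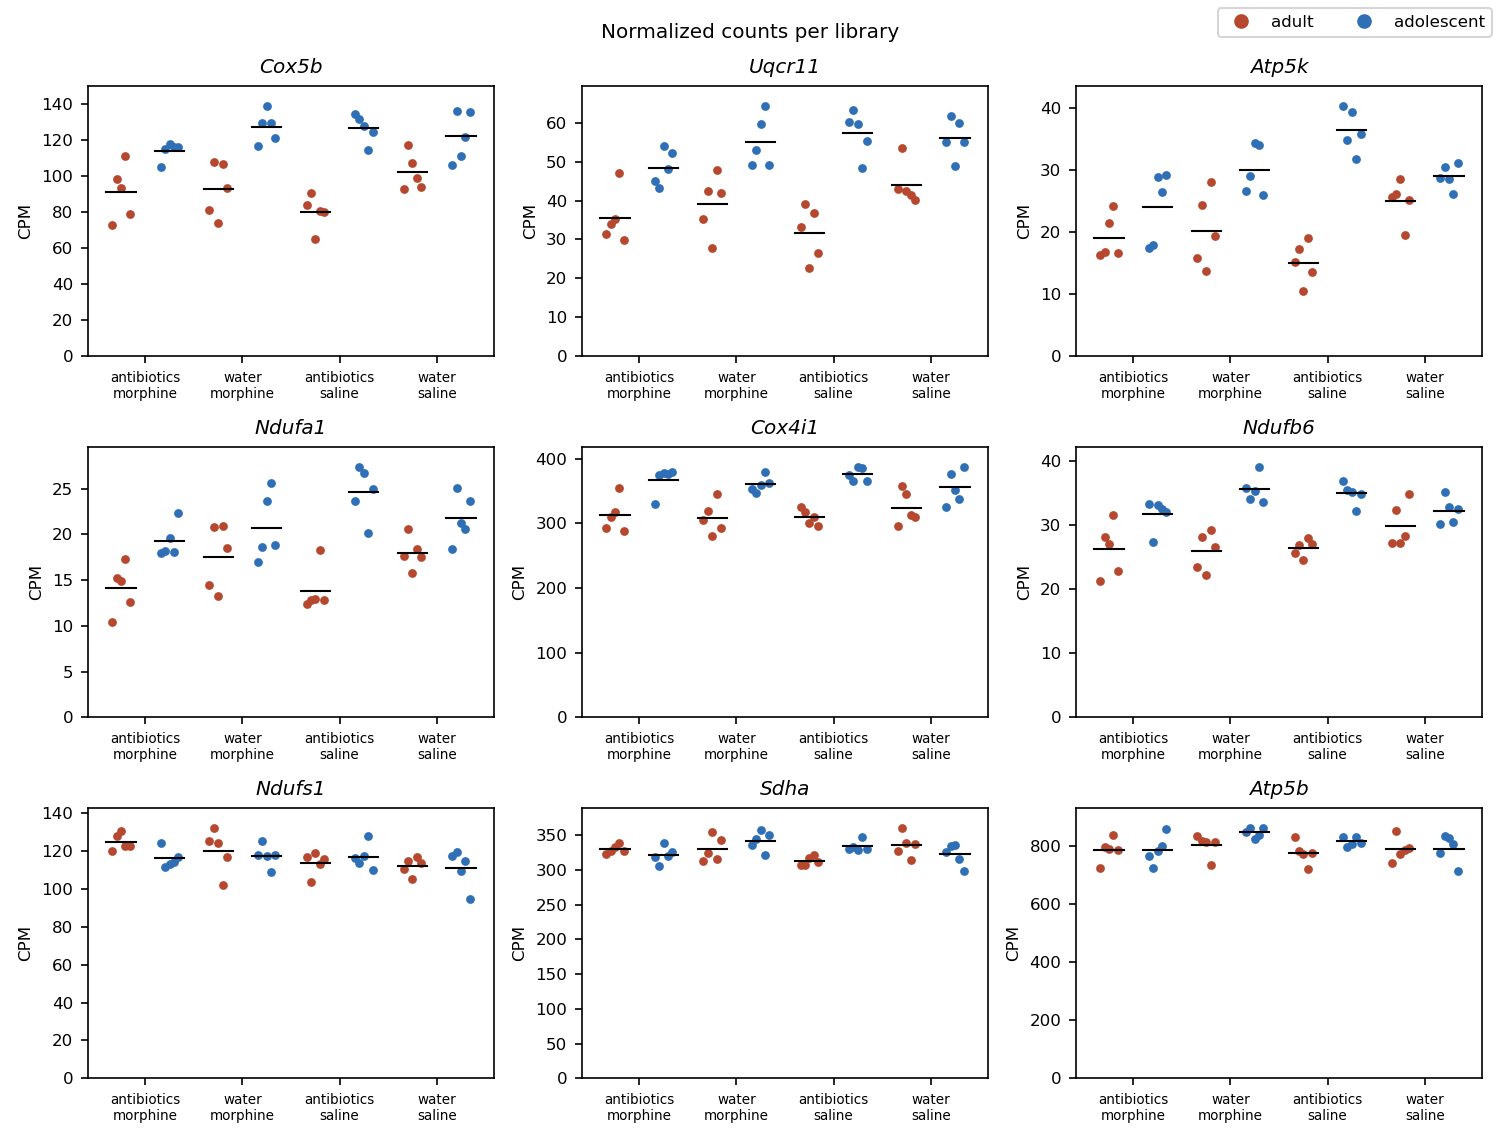
CPM (y axes from 0) of 9 genes in each library (points) with group means (lines), adult left of adolescent in each treatment. Cox5b, Uqcr11, Atp5k, Ndufa1, Cox4i1 and Ndufb6 separate by age under antibiotics and saline, and Ndufs1 and Atp5b overlap there.

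Across the 83 genes, the age difference under antibiotics and saline followed transcript length. The median principal transcript was 732 bases for accessory and 1623 for core subunits of complex I. It was 445 bases for small and 1586.5 for large or catalytic subunits of complex III, and 2065.5 for complex II. The contrasts by subunit role given above were therefore not separated from transcript length. The 26 genes with principal transcripts under 600 bases had a median log2 fold change of -0.45, with 21 called lower, or 80.8%, while the 5 genes of 2000 bases and over had a median of -0.09 with 0 called. Other protein-coding genes showed the same order with smaller values. Those under 600 bases, of which there were 172, had a median of -0.22 with 18.6% called lower, and those of 2000 bases and over, 10227 in number, a median of 0.03 with 1.5% called lower. From 600 to under 800 bases, 58.8% of respiratory chain genes and 17.4% of other protein-coding genes were called lower. From 800 to under 1200 bases these were 9 of 18 genes and 11.6%, and from 1200 to under 2000 bases 17.6% and 5.42%. Spearman's rho between transcript length and log2 fold change was 0.58 across the 83 genes and 0.38 across 14071 other protein-coding genes, given as a description across genes that share the same libraries.
Of the 83 genes, 24 have a copy of at least 95% identity over 150 bases or more elsewhere among the reference transcripts, mostly processed pseudogenes. Reads of these may be split or left uncounted, so a low count at the copy does not show that the gene is unaffected. Among them are Cox5b, with a copy of 99.2% identity at a mean of 18.2 counts, Uqcr11, with a copy of 98.8% at 2.5 counts, and Atp5k, with a copy of 95.7% at 0.25 counts. Exons of 30 genes overlap another gene, among them Cox4i1, Ndufa2 and Ndufb6, whose partners lie on the opposite strand, so that without a stated strand setting their values are uncertain. Ndufb8 shares 134 bases with a gene on the same strand, which had a mean of 0 counts. Atp5k, Uqcr11, Cox5b, Ndufa2 and Ndufb8 are among the genes called also with the score as a covariate, so this limit holds for them too. Of the 40 genes with neither, 19 were called lower in adults under antibiotics and saline, with a median log2 fold change of -0.24.

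**Figure D4:**
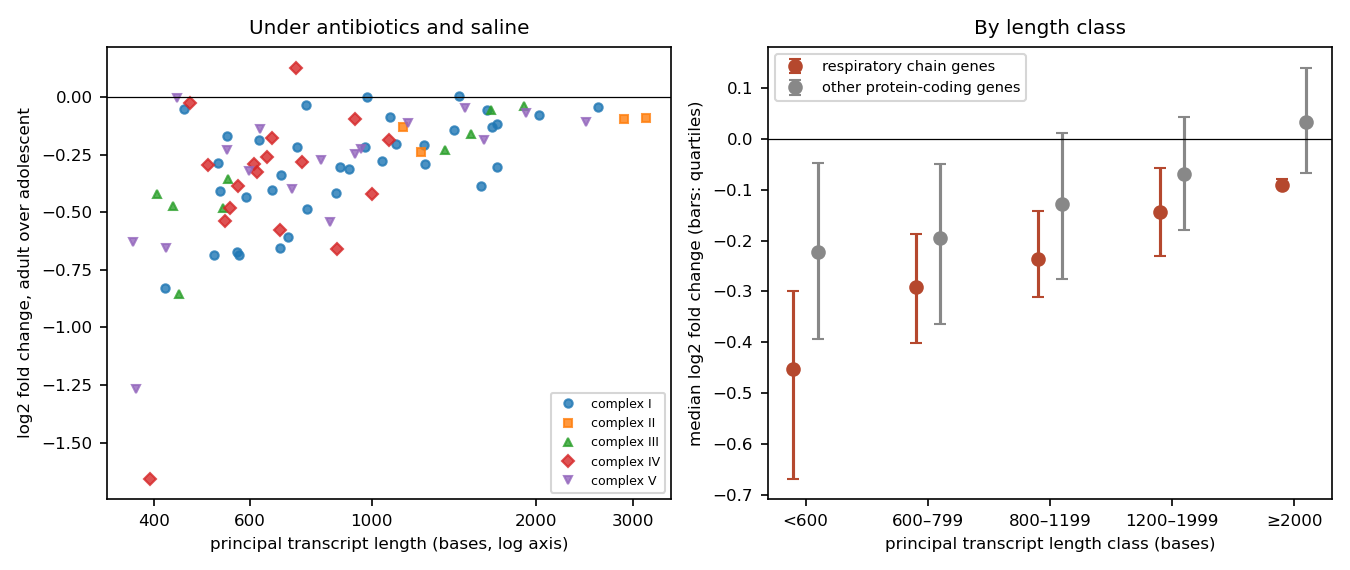
Left, log2 fold change of adults over adolescents given antibiotics and saline against principal transcript length (log axis) for each gene, marked by complex. Right, median and quartiles by length class for respiratory chain genes and for other protein-coding genes; the respiratory chain medians run from -0.45 to -0.09 and the others from -0.22 to 0.03.

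**Figure D5:**
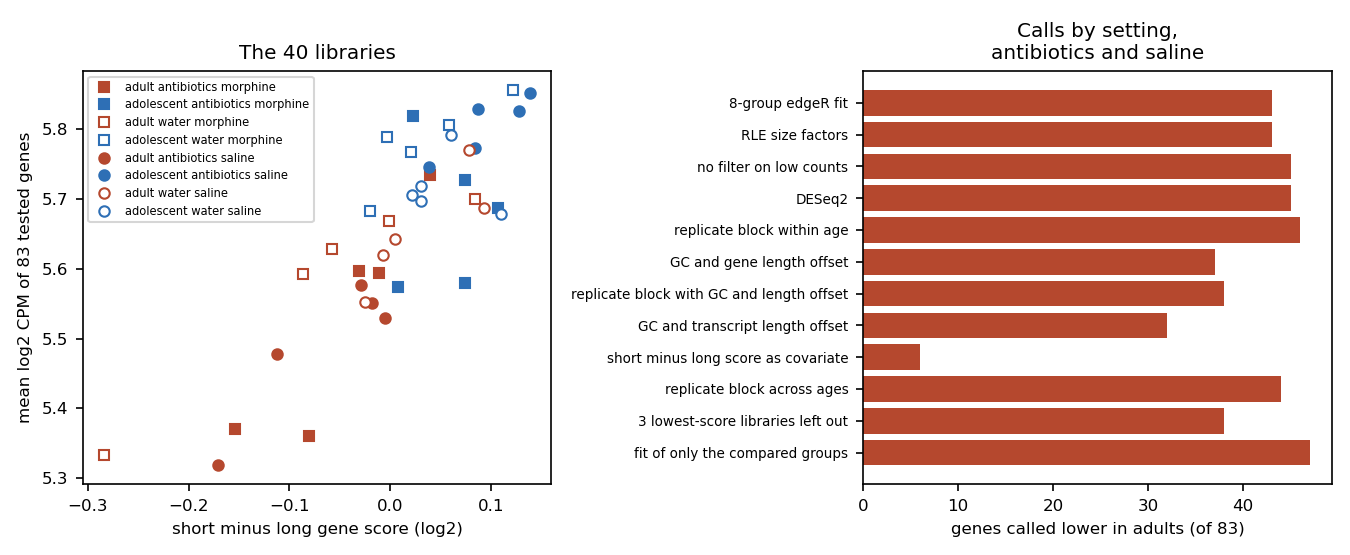
Left, mean log2 CPM of the 83 genes against the short-minus-long score of each of the 40 libraries. Right, number of genes called lower in adults given antibiotics and saline under each setting, from 47 in a fit of only these groups to 6 with the score as a covariate.

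With water and saline, no respiratory chain gene was called between adults and adolescents by edgeR or by DESeq2, beside 0.257% of all genes called by edgeR. At an unadjusted p under 0.05, 1 gene was higher and 8 were lower, or 10.8% of the 83 against 10% of all genes, and the median log2 fold change was -0.06. Cox5b stood at -0.26 ± 0.10 (SE), adjusted p = 0.299, Uqcr11 at -0.35, Cox8a at -0.27 and Atp5k at -0.21, values of the same sign as under antibiotics and saline. The score ran from -0.02 to 0.09 in these adults and from 0.02 to 0.11 in these adolescents.

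With water and morphine, 6 genes were lower in adults and none was higher, or 7.23% of the 83 beside 0.928% of all genes called in either direction and 0.531% called lower. The 6 were Ndufb6, Atp5g1, Cox5b, Atp5g3, Ndufa8 and Cox4i1, all 6 of which were also called under antibiotics and saline, and the median of the 83 was -0.17. Ndufb6, a membrane-arm accessory subunit of complex I, had 23.4, 28.2, 22.2, 29.3 and 26.6 CPM in adults and 35.7, 34.1, 35.3, 39.1 and 33.6 CPM in adolescents. The groups did not overlap, and the log2 fold change was -0.45 ± 0.09 (SE), adjusted p = 0.00384. In 12 genes the groups did not overlap, which held for 1.91% of all genes. The count was 2 without adolescent replicate 3, 3 without adult replicate 1 or 3, and 14 without adult replicate 4, and it was 2 with the score as a covariate (Cox5b and Ndufb6). DESeq2 called 14 genes. The score ran from -0.28 to 0.08 in these adults and from -0.02 to 0.12 in these adolescents.

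With antibiotics and morphine, 3 genes were lower in adults and none was higher, or 3.61% of the 83 beside 1.04% of all genes called in either direction and 0.626% called lower. They were Cox6a1 at -0.32 ± 0.08 (SE), adjusted p = 0.0356, Cox4i1 at -0.23 ± 0.06 (SE), adjusted p = 0.0356 and Ndufa8 at -0.32 ± 0.08 (SE), adjusted p = 0.0373, and the median of the 83 was -0.13. Cox6a1 had 181, 207, 218, 242 and 169 CPM in adults and 229.7, 258, 242, 274 and 264 CPM in adolescents, and the highest adult library lay above the lowest adolescent one. The count fell to 0 with the score as a covariate and without any 1 of adult replicates 1, 2 and 5 or adolescent replicates 3 and 4. It was 1 without adolescent replicate 2 and 11 without adult replicate 4, and DESeq2 called 10 genes. The score ran from -0.15 to 0.04 in these adults and from 0.01 to 0.11 in these adolescents.

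These 4 age comparisons share no libraries. Of the 83 genes, 56 had a negative log2 fold change in all 4, 13 in 3 of them, and none was positive in all 4. Cox4i1 and Ndufa8 were called lower in 3 of the 4, and 5 further genes in 2 of them. In 64 genes the lowest of the 4 values was the one under antibiotics and saline. No gene, however, passed the test of a difference between the ages in the response to antibiotics in saline by edgeR, where the smallest adjusted p was 0.0801 (Atp5k) and 37 genes had an unadjusted p under 0.05 with a negative value (44.6% against 10.1% of all genes), and DESeq2 called 1 gene there, beside 0.0224% of all genes called by edgeR. The sizes of the 4 age differences are therefore given side by side, and no call of a difference between them was made for antibiotics in saline.

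Averaged over the 4 treatments, 54 genes were lower in adults than in adolescents and none was higher, or 65.1% of the 83 beside 17.9% of all genes called in either direction and 8.57% called lower. By complex these were 23 of 36 genes in complex I, Sdhd alone of 4 in complex II, 7 of 9 in complex III, 13 of 17 in complex IV and 10 of 17 in complex V. All 12 ubiquitous or main complex IV isoforms and all 5 small complex III subunits were called, as were 2 of the 7 core subunits of complex I (Ndufs3 and Ndufv1) and 21 of its 29 accessory subunits. Cox5b changed at -0.43 ± 0.05 (SE), adjusted p = 2.92e-08, Uqcr11 at -0.53 ± 0.06 (SE), adjusted p = 2.82e-07, Ndufa2 at -0.39 ± 0.05 (SE), adjusted p = 6.07e-08 and Cox4i1 at -0.22 ± 0.03 (SE), adjusted p = 5.01e-07. The median was -0.16. With the score as a covariate 14 calls were left, among them Cox5b, Uqcr11, Ndufa2, Cox4i1, Ndufb6, Atp5g1, Ndufa8 and Ndufa1, and the median was -0.06.

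Within an age, antibiotics and morphine moved few respiratory chain genes past the threshold. Comparisons at the same age share libraries, so their values are given side by side and are not independent. In adolescents under antibiotics, morphine against saline lowered Uqcrb and Atp5k, or 2.41% of the 83 beside 2.92% of all genes called in either direction and 1.34% called lower, shares near each other. Uqcrb, a small complex III subunit, had 30.9, 28.9, 29.8, 28.5 and 43.0 CPM with morphine and 42.0, 42.4, 49.8, 38.2 and 39.0 CPM with saline. The fifth morphine library lay within the saline values and the other 4 below all of them, at a log2 ratio of morphine to saline of -0.39 ± 0.10 (SE), adjusted p = 0.0148. Atp5k had 17.4, 17.9, 28.9, 26.5 and 29.2 CPM with morphine and 40.3, 34.8, 39.4, 31.8 and 35.7 CPM with saline. No morphine library reached the lowest saline library, and the log2 fold change was -0.60 ± 0.16 (SE), adjusted p = 0.0244. The count was 0 without antibiotics-saline replicate 3 or antibiotics-morphine replicate 2, and 1 without antibiotics-saline replicate 1 or any 1 of antibiotics-morphine replicates 1, 3 and 4.

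In adolescents given antibiotics against water, no gene was called by edgeR or DESeq2 in saline, where the median was 0.09 with 75 of 83 values positive, beside 0.0391% of all genes called. Under morphine none was called by edgeR or DESeq2 either, with a median of -0.10 and 69 negative values, beside 7.56% of all genes. The unadjusted p was under 0.05 for 6 genes in saline, all higher, or 7.23% against 9.75% of all genes. Under morphine it was so for 11 genes, all lower, or 13.3% against 23.0% of all genes. Cox5a had 81.1, 63.9, 81.2, 80.2 and 95.9 CPM with antibiotics and 85.7, 97.8, 90.2, 98.6 and 99.4 CPM with water under morphine, and -0.23 ± 0.08 (SE), adjusted p = 0.0565 on the log2 scale. The count under morphine was 5 without antibiotics-morphine replicate 5, 2 without water-morphine replicate 1, and 12 with the score as a covariate, Cox5a among them. The interaction of antibiotics and morphine in adolescents had a median of -0.18 with 80 negative values and no call by edgeR or DESeq2, beside 1.24% of all genes called by edgeR. At an unadjusted p under 0.05 it had 21 genes, or 25.3% against 16.9% of all genes. Without antibiotics-morphine replicate 5, which stood at 5.82 while the other 4 libraries of its group were between 5.57 and 5.73 in mean log2 CPM, the interaction had 3 calls.

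In adults given antibiotics against water in saline, no gene was called by edgeR and 2 by DESeq2, beside 0.0503% of all genes in edgeR. The median was -0.13, 72 of 83 values were negative, and 27 had an unadjusted p under 0.05, all of them negative, or 32.5% against 10.1% of all genes. In 5 genes all antibiotics libraries lay below all water libraries, which held for 0.94% of all genes. Atp5k had 15.2, 17.3, 10.5, 19.0 and 13.5 CPM with antibiotics and 25.6, 26.1, 28.5, 19.6 and 25.1 CPM with water. The groups did not overlap, while the log2 fold change of -0.73 ± 0.17 (SE) did not pass at an adjusted p of 0.0775 in edgeR. The short-minus-long score ran from -0.17 to -0.005 with antibiotics and from -0.02 to 0.09 with water. Cox5b and Uqcr11 stood at -0.35 and -0.48 there. The other comparisons of adults gave no calls in edgeR or DESeq2. Over all genes, edgeR called 0.475% for morphine on water, 0.213% for morphine under antibiotics, 0.028% for antibiotics under morphine and 0% for the interaction. At an unadjusted p under 0.05, morphine on water had 3 of the 83 genes, or 3.61% against 11.1% of all genes, with a median of -0.05. Morphine under antibiotics had 3, or 3.61% against 7.04% of all genes, with a median of 0.03. Antibiotics under morphine had 6, or 7.23% against 8.02%, with a median of -0.04, and the interaction 4, or 4.82% against 6.79%, with a median of 0.06. These shares were all below those over all genes.
Averaged over both ages, antibiotics lowered 1 gene, Ndufb2, or 1.2% of the 83 beside 7.5% of all genes called in either direction and 4.23% called lower, at -0.24 ± 0.07 (SE), adjusted p = 0.0194. Ndufb2 overlaps exons of Braf on the other strand, and Braf had a mean of 1362 counts against 106 for Ndufb2, so its value is uncertain. The count was 3 with DESeq2, 12 with the score as a covariate, and 6 without adolescent antibiotics-morphine replicate 5 or adult water-morphine replicate 3. Averaged over both ages, morphine gave no call in edgeR or DESeq2, beside 4.35% of all genes called by edgeR. At an unadjusted p under 0.05 there were 5 genes, or 6.02% against 17.6% of all genes. In adolescents on water, morphine gave no call in either tool, beside 0.319% of all genes called by edgeR, and the median was 0.06. At an unadjusted p under 0.05 there were 8 genes, all higher, or 9.64% against 13.4% of all genes. Of the 4 tests of a difference between the ages in a response, those for morphine on water, morphine under antibiotics and antibiotics under morphine had no call in either tool, beside 0%, 0% and 0.00559% of all genes called by edgeR. At an unadjusted p under 0.05 the first had 4 genes, or 4.82% against 10% of all genes, the second 14, or 16.9% against 6.44%, and the third 0 against 5.65%.

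Other mitochondrial genes were counted for the 2 age comparisons with most calls. Their calls are given without the short-minus-long score as a covariate and without transcript lengths. Under antibiotics and saline, age and score cannot be told apart for these genes either. Over all genes, 2.79% were called higher and 3.18% lower in adults under antibiotics and saline, and 9.28% higher and 8.57% lower averaged over the treatments. Of the 13 proteins encoded in mitochondrial DNA, which join the nuclear subunits in complexes I, III, IV and V, mt-Nd5 at 0.44 ± 0.11 (SE), adjusted p = 0.0142 in edgeR, and mt-Co1 at 0.35 ± 0.09, adjusted p = 0.0218, were higher in adults under antibiotics and saline, and none was lower. These transcripts together took between 35452 and 46964 CPM in these adults and between 30808 and 36474 CPM in these adolescents, ranges that overlapped. Averaged over the treatments, 4 of the 13 (mt-Nd5, mt-Nd2, mt-Co1 and mt-Nd6) were higher, beside 9.28% of all genes, and none lower.
Of the assembly factors, those of complex I had 0 of 14 called under antibiotics and saline, and those of ATP synthase 0 of 3. Lower in adults were the complex IV factors Pet100, Cox14 and Cox11 (3 of 17), Uqcc3 for complex III (1 of 6) and Sdhaf4 for complex II (1 of 4), with log2 fold changes of -0.64, -0.41, -0.43, -0.56 and -0.46. Of 17 mobile carriers and exchange proteins, 4 were lower, beside 3.18% of all genes, namely cytochrome c (Cycs) at -0.27, the ADP/ATP exchangers Slc25a4 at -0.22 and Slc25a5 at -0.21, and the outer membrane channel Vdac1 at -0.18. None of 19 genes of pyruvate oxidation and the citrate cycle was called, with a median of -0.05. Of 17 table entries of glycolysis genes Tpi1 and Ldha were lower at -0.20 and -0.24.
Of 17 transcriptional regulators, beside 3.18% of all genes called lower and 2.79% called higher, Esrra, which encodes the estrogen-related receptor alpha, was lower at -0.33 ± 0.09 (SE), adjusted p = 0.0157 in edgeR, and the coactivator Pprc1 was higher at 0.35 ± 0.08, adjusted p = 0.0061. Nrf1 stood at 0.07, Gabpa at -0.15 and Ppargc1a at 0.22 with no call. Averaged over the treatments, Ppargc1b and Esrrg were also called higher.
Ribosomal protein genes, many of which are short, had 12 of 77 mitochondrial and 18 of 76 cytosolic members lower under antibiotics and saline, beside 3.18% of all genes, with medians of -0.15 and -0.15, and none higher.

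Cell type markers that differed with age stand beside these results. Averaged over the treatments, 8 of 10 oligodendrocyte markers and 6 of 10 markers of their precursors were lower in adults, beside 8.57% of all genes, with median log2 fold changes of -0.34 and -0.19. Of 5 erythrocyte genes 3 were higher, beside 9.28% of all genes, with a median of 0.27. Under antibiotics and saline 1 of 10 oligodendrocyte markers and 1 of 10 precursor markers were lower, beside 3.18% of all genes, and the summed level of the oligodendrocyte markers was 827 to 1329 CPM in adults and 1150 to 1651 CPM in adolescents. With water and saline that sum was 970 to 1085 CPM in adults and 1150 to 2176 CPM in adolescents, groups that did not overlap, and there no respiratory chain gene was called. Excitatory neuron markers had 0 of 10 called under antibiotics and saline, with sums of 6455 to 7765 CPM in adults and 6361 to 6883 CPM in adolescents. The part of these cell types in the age difference of the respiratory chain genes was not tested.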

How the data were processed

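Polyadenylated RNA of 40 brain libraries in 8 groups of 5 was sequenced. The authors deposited raw read counts per gene. STAR 2.7.10a, DESeq2 and build mm10 are named per the submitters' processing notes; the sources used here do not give the counting annotation, the strand setting or the DESeq2 version. Of 56980 Ensembl IDs, 52125 (91.5%) matched a GENCODE symbol, and every row named a gene. Libraries held 8636712 to 12098769 counts, so 3 counts, taken as the detection floor, correspond to 0.248 to 0.347 CPM, which covers counting error only.

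Genes with at least 10 counts in enough libraries and 15 in all (filterByExpr) were kept, leaving 17880 genes with at least 99.75% of each library's counts. All 40 libraries were fitted in 1 model of 8 groups with edgeR 4.0.16 (R 4.3.3; TMM scaling, robust quasi-likelihood test), and 21 comparisons were made, each with Benjamini-Hochberg adjustment over all genes. Group labels came from GEO's labels. Log2 CPM used a prior count of 2, and SE is the size of the log2 fold change divided by the square root of F. The fit was tested on simulated data for the age comparison under antibiotics and saline. It recovered 34.3% of 1.25-fold, 62.7% of 1.5-fold and 78.8% of 2-fold changes. Of 125 calls, 8 fell on unchanged genes. A gene without a call may therefore still have changed by a small amount. Alternatives were RLE scaling, no filter, DESeq2 1.42.0, a replicate block, an offset for GC content and length, a fit of only the groups compared, and leaving out each library; an offset by transcript length, a replicate block across ages, the short-minus-long score as a covariate and leaving out its 3 lowest libraries were added after the data were seen.

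The genes and lists were chosen with earlier results of these data known. Named genes are up to 8 called in each direction per comparison with the smallest p, a set listed by role with paralogue pairs, and up to 4 called genes per list; other genes named were chosen after their values were seen. The values of 1 complex I gene are counted in the totals and not reported here singly.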

Additional observations from a re-analysis of the deposited data

Results flagged for a closer look

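Of 192 groups of 5 values examined, 13 had 1 library far from the other 4 by Dixon's criterion (gap over range above 0.71), and chance flags about 1 in 20 groups. In adolescents given antibiotics and morphine, replicate 1 was lowest for Cox4i1 (329.97 CPM) and for Cox5b (105 CPM), replicate 2 was lowest for Ndufb6 (27.4 CPM) and for the mean of complex II (6.41 log2 CPM), and replicate 5 was highest for Uqcrb (43.0 CPM). In adolescents given antibiotics and saline, replicate 4 was highest for Sdha (347 CPM, against 332 CPM in the next library). In adolescents given water and morphine, replicate 1 was lowest for the mean of complex IV (4.97 log2 CPM). In adults given antibiotics and saline, replicate 4 was highest for Ndufa1 (18.3 CPM) and replicate 3 lowest for the mean of complex IV (4.63 log2 CPM). In adults given water and saline, replicate 2 was highest for Uqcr11 (53.4 CPM). In adults given water and morphine, replicate 4 was lowest for Atp5b (734 CPM), and replicate 3, which also had the lowest short-minus-long score, was lowest for the means of complex III (5.96 log2 CPM) and complex V (5.96 log2 CPM).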

How the results depend on the processing

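No count of called genes reversed direction. The counts below are given without shares over all genes for each setting, so they do not show whether other genes moved alike. Under antibiotics and saline, the 43 genes lower in adults became 6 with the score as a covariate, and 29 to 44 when 1 library was left out (29 without adult replicate 5). The 54 genes of the averaged age difference became 14 with the covariate, and 53 to 58 without 1 library. Under water and morphine, the age count of 6 became 14 with no filter, 14 with DESeq2, 2 with the covariate and 3 without the 3 lowest libraries, and 2 to 14 without 1 library. Under antibiotics and morphine, the age count of 3 became 8 with no filter, 10 with DESeq2, 6 with the replicate block within age, 7 with the block across ages, 5 in a fit of only its groups, 1 with either offset, 1 without the 3 lowest libraries and 0 with the covariate, and 0 to 11 without 1 library. Under water and saline the covariate gave 1. Morphine under antibiotics in adolescents gave 4 in a fit of only its groups and 0 to 2 without 1 library. Antibiotics under morphine in adolescents gave 2 with no filter, 1 with either offset, 1 with the replicate block and offset, 12 with the covariate and 0 to 5 without 1 library, and the interaction 2 with no filter, 1 with the covariate and 0 to 3 without 1 library. Antibiotics in saline in adults gave 3 with no filter, 2 with DESeq2, 3 with the replicate block, 1 in a fit of only its groups and 0 to 1 without 1 library. Averaged over ages, antibiotics gave 5 with no filter, 3 with DESeq2, 3 with the replicate block within age, 3 with the block across ages, 2 with either offset, 4 with the block and offset, 12 with the covariate and 1 to 6 without 1 library (6 without adolescent antibiotics-morphine replicate 5 or adult water-morphine replicate 3). The age difference in the response to antibiotics in saline gave 2 with no filter, 1 with DESeq2, 1 in a fit of only its groups and 0 to 1 without 1 library, and that in the response to morphine under antibiotics gave 1 with the covariate. The other comparisons gave 0 to 0 without 1 library. The covariate, the transcript offset, the block across ages and leaving out the 3 lowest libraries were chosen after seeing the data, and the cause of these shifts was not tested. Same-numbered libraries deviated together (correlation over 0.1) in 6 of 60 pairs within an age, median 0.006, and in 11 of 80 pairs across ages, median 0.01, so they were taken to share only a number. With the replicate block the age count under antibiotics and saline was 46 within age and 44 across ages. At this depth, genes near the 3-count floor, such as Cox7a1, are not resolved.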
